A study of Mus musculus with 3 samples.

Results

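The 8 transcription factor genes described here, Hnf4a, Hnf4g, Cdx1, Cdx2, Gata4, Gata6, Pdx1 and Onecut2, were chosen by name from the 51912 genes of the deposited single-cell RNA sequencing tables as regulators of intestinal identity and of position along the gut. All 8 were matched by symbol, and their unique molecular identifiers (UMIs, each standing for 1 captured transcript) were summed over cells with at least 1000 detected genes and at most 15% mitochondrial UMIs. The study deleted Arid3a, which encodes an AT-rich DNA-binding transcription factor, from the mouse intestinal epithelium. Its 2 Arid3a cKO libraries came from VillinCreERT2, Arid3a fl/fl animals and the 1 WT library from a control with VillinCreERT2 alone, so that both groups carry the tamoxifen-activated Cre, which the Villin promoter drives in gut epithelium. Both groups received tamoxifen at 8 to 10 weeks of age and were sampled 1 month after the first injection. Crypt cells were sorted as living, Epcam-positive, CD45-negative and CD31-negative, and the labels name the tissue only as intestine. For the dissociation the study's methods refer to a protocol that starts from crypts of the proximal jejunum, and the stretch taken for each library is not stated. A further WT replicate was not analysed here.

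Hnf4a and Hnf4g encode a pair of related nuclear receptors that activate lipid transport and brush border genes in enterocytes. The caudal-type homeobox factors encoded by Cdx1 and Cdx2 hold the epithelium in an intestinal rather than a gastric state. GATA4 and GATA6 are zinc finger factors, of which GATA4 is known to be used in the proximal small intestine and to be absent from the distal ileum, whereas GATA6 is used along the whole length. PDX1, a homeobox factor known for its part in pancreas development, marks the antrum and duodenum in the adult gut, and ONECUT2 is a cut-homeobox factor of the upper small intestine and of endocrine cells.

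Pdx1 and Cdx2 are neighbours on mouse chromosome 5. Pdx1 (ENSMUSG00000029644) spans chr5:147269959-147275848 on the plus strand and Cdx2 (ENSMUSG00000029646) spans chr5:147300805-147307270 on the minus strand in the GENCODE M21 annotation, with 24956 bases between them. Hnf4a (ENSMUSG00000017950) lies on chr2:163506808-163572910, Hnf4g (ENSMUSG00000017688) on chr3:3508030-3658052 and Gata4 (ENSMUSG00000021944) on chr14:63198922-63271692. All 8 members are annotated as protein-coding genes.

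RefSeq promoters (250 bases before to 50 after a start, build GRCm38.p6) were found for 3 of the 8 members. Those of Pdx1 and Cdx2 are shown because these neighbours followed different patterns below, and both listed starts of Hnf4a because 3′ counts cannot tell them apart. Each runs 5′ to 3′ on the gene's strand. Capitals mark matches, on either strand, to the HNF1 core motif GTTAAT, the motif AGATAA bound by GATA factors, the motif TTTATG bound by CDX factors or the HNF4 motif CAAAGT, none of which contains another.
Pdx1, chr5:147269847-147270146, plus strand: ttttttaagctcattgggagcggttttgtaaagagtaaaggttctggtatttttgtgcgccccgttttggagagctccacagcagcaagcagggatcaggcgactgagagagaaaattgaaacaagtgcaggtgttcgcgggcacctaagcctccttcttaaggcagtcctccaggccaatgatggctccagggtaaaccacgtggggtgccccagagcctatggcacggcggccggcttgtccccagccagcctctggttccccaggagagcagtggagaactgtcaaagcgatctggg
Cdx2, chr5:147307200-147307499, minus strand: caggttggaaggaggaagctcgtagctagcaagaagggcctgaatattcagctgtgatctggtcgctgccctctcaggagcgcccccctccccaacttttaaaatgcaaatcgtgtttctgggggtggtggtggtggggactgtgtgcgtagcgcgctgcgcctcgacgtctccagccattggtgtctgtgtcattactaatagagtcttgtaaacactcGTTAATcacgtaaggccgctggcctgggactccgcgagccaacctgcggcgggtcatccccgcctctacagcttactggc
Hnf4a upstream start, chr2:163506607-163506906, plus strand: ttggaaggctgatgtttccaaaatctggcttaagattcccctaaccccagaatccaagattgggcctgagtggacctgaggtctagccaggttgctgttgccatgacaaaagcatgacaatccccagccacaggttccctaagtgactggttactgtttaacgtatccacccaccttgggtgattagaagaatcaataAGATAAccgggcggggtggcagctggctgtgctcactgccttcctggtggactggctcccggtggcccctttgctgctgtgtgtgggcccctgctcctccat
Hnf4a downstream start, chr2:163546905-163547204, plus strand: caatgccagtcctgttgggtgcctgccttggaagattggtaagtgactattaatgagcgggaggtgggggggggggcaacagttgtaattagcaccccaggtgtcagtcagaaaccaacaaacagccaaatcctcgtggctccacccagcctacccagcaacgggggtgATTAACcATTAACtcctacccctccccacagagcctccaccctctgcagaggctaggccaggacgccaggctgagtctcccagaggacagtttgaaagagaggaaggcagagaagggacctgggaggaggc
The downstream Hnf4a window held 2 matches to GTTAAT and the Cdx2 window held 1, whereas the upstream Hnf4a window held none and had 1 match to AGATAA. The Pdx1 window held none of the 4 motifs. Among all 32851 promoters of the same length, 7.10% held GTTAAT, 11.2% AGATAA, 11.9% TTTATG and 14.4% CAAAGT. These matches describe the letters only.

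Of 25554 barcodes, 5594 passed the filters, 2134 and 1550 in Arid3a cKO 1 and 2 and 1910 in WT. These were 31.2%, 22.5% and 16.2% of each library's barcodes, and 66.4%, 75.6% and 79.2% of barcodes exceeded the mitochondrial limit. The median mitochondrial share of kept cells was 4.64%, 4.07% and 5.52%. WT thus had the highest mitochondrial shares, a difference that cannot be told apart from genotype. The kept cells held between 58169310 and 70922480 UMIs per library, with a median of 29895 to 35764 UMIs per cell, and 11 to 18 barcodes were shared between pairs of libraries. Cells were grouped without the members and called intestinal stem cell (ISC), transit-amplifying (TA), enterocyte, goblet, enteroendocrine, tuft and Paneth "-like" by marker genes. A cluster of 732 cells led by 1500035N22Rik, Ccl20 and Edn2 carried no class's markers and is called the Ccl20 cluster, and a further 148 cells led by Gm42418 and Mir6236 stayed unnamed. Levels are given as counts per 1000000 UMIs of the class (CPM) with exact 95% Poisson intervals, which cover counting error only. Immune cell markers summed to 1.32 to 2.68 CPM per library and endothelial markers to 0.282 to 0.447 CPM, with Cdh5 at 0 in every library, which allows up to 0.0516 CPM. Stromal markers summed to 3.80 CPM in Arid3a cKO 2 and to 0.0282 and 0.0160 CPM in the other cKO and the WT library, and pancreatic acinar markers to 20.9 to 25.9 CPM. In the cKO libraries nearly all of the acinar sum was Cela1, at 23.3 and 25.9 CPM, a gene also found in enterocyte-like cells (26.9 CPM in WT). The acinar marker Cpa1 had 0 UMIs in both cKO libraries and 2 in WT.

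The targeted gene was low but not absent in the cKO libraries. Over all cells the first cKO library had 42 Arid3a UMIs (0.592 CPM), the second 52 (0.894 CPM) and the WT library 161 (2.57 CPM). The ratios to WT were 0.231 (95% interval 0.160 to 0.326) and 0.348 (0.250 to 0.479), and the cKO libraries lay below WT without overlap.

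The members fell into different patterns over the cell classes, and most of each pattern was shared by all 3 libraries. Hnf4g was the most restricted to absorptive cells. In enterocyte-like cells its values for the cKO 1, cKO 2 and WT libraries, the order used from here on, were 193, 204 and 189 CPM, and in the Ccl20 cluster they were 180, 181 and 172 CPM. ISC-like cells had 49.4, 50.1 and 44.3 CPM, TA-like cells 47.1, 46.9 and 50.5 CPM, and goblet-like cells 40.2, 33.2 and 39.5 CPM. Enterocyte-like cells and the Ccl20 cluster were thus above every other class without overlap between libraries, while the ranges of ISC- and TA-like cells overlapped. Free RNA from enterocytes can place UMIs in other cells, so 2 abundant enterocyte transcripts were taken as a gauge: Apoa4 in ISC-like cells reached 2.23 to 4.26% of its enterocyte level and Fabp1 1.91 to 2.53%. Hnf4g in ISC-like cells was at 23.5 to 25.6% of its enterocyte level, above that gauge, whereas in Paneth-like cells it was at 2.01 to 3.08%, where Apoa4 was at 0.364 to 2.09%.

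**Figure D1:**
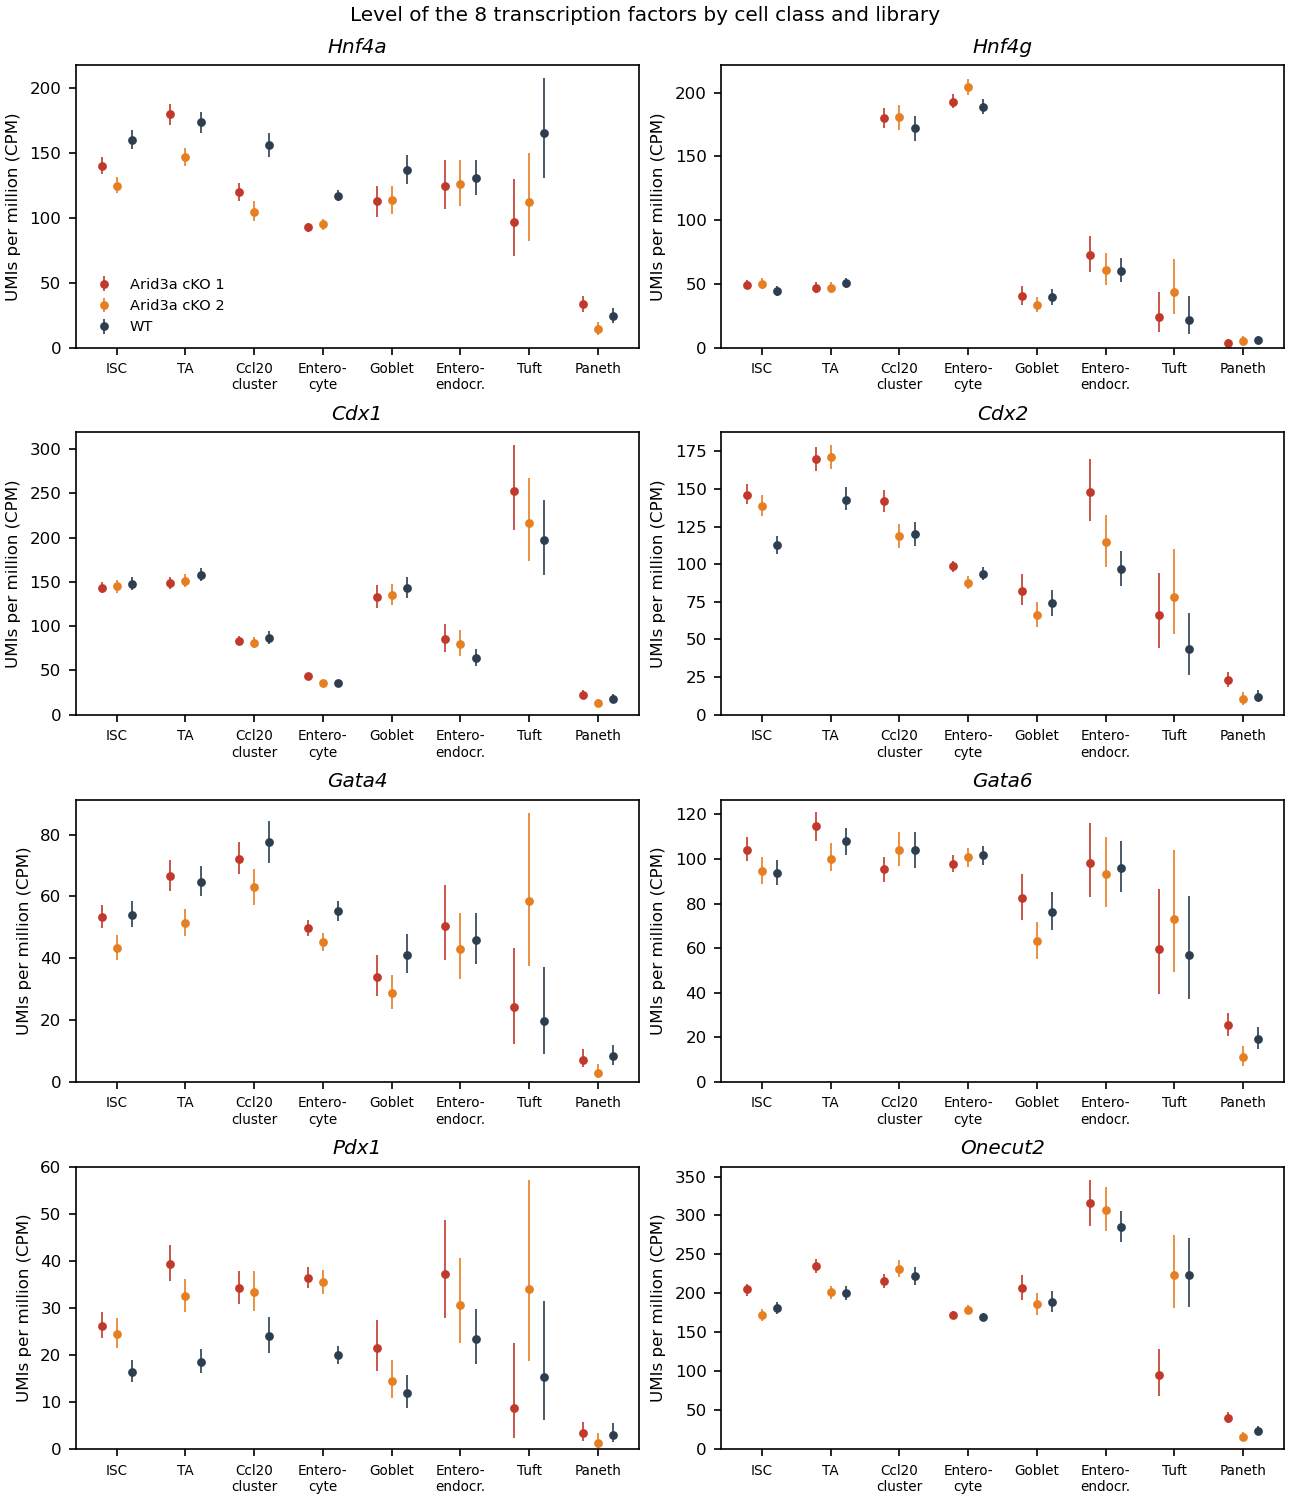
Level of each transcription factor gene (CPM, linear axis from 0) in 8 groups of cells, with 1 point per library and bars for exact 95% Poisson intervals. Hnf4g stands highest in enterocyte-like cells (189 to 204 CPM), Cdx1 in tuft-like cells (197 to 253 CPM) and Onecut2 in enteroendocrine-like cells (285 to 316 CPM), and every member is lowest in Paneth-like cells.

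Hnf4a, the paralog, was spread over the classes. TA-like cells had 180, 147 and 174 CPM, ISC-like cells 140, 125 and 160 CPM, and enterocyte-like cells 92.7, 94.99 and 117 CPM. The ranges over libraries of neighbouring classes overlapped from TA-like down to enterocyte-like cells. As a share of the UMIs of both receptors, Hnf4g made up 61.7 to 68.3% in enterocyte-like cells and 22.1 to 26.2% in ISC- and TA-like cells together, without overlap between the 2 groups of cells in any library. Counts of transcript 3′ ends are not scaled by length, and capture can differ between genes, so the change in the share is more readily read than its level.

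The CDX genes were, like Hnf4a and unlike Hnf4g, higher in ISC- and TA-like than in enterocyte-like cells. Cdx1 was at 143, 145 and 148 CPM in ISC-like cells and 149, 151 and 158 CPM in TA-like cells, but at 43.9, 36.0 and 35.6 CPM in enterocyte-like cells. It was highest in tuft-like cells, at 253, 217 and 197 CPM, in 38, 20 and 40 cells. Their UMIs were, at the median, 0.294 of the median of all kept cells of the same library. Cdx2 was also higher in TA-like cells (170, 171 and 143 CPM) than in enterocyte-like cells (98.5, 87.8 and 93.7 CPM), but its decline was smaller. Cdx1 made up 27.5 to 30.8% of the CDX UMIs in enterocyte-like cells, 48.2 to 54.5% in ISC- and TA-like cells, 61.7 to 67.2% in goblet-like cells and 73.6 to 81.8% in tuft-like cells. In each library the share was thus lowest in enterocyte-like cells and highest in tuft-like cells.

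The GATA genes changed little along the absorptive lineage, though both were higher in TA-like than in ISC-like cells of each library. Gata6 was at 104, 94.7 and 93.8 CPM in ISC-like cells, 115, 100 and 108 CPM in TA-like cells and 97.9, 101 and 102 CPM in enterocyte-like cells, and the ranges of all 3 overlapped. Gata4 was at 53.4, 43.2 and 54.1 CPM in ISC-like cells and 49.7, 45.2 and 55.3 CPM in enterocyte-like cells. In TA-like cells it spanned 51.3 to 66.6 CPM, above both of these classes within each library. It was highest in the Ccl20 cluster, at 72.3, 63.0 and 77.5 CPM. Gata6 made up 62.4 to 69.0% of the UMIs of both genes in ISC-, TA- and enterocyte-like cells. Neither the share nor the ranges of the levels over libraries separated these classes.

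Onecut2 was highest in enteroendocrine-like cells, the hormone-producing class, at 316, 307 and 285 CPM, against 172, 179 and 169 CPM in enterocyte-like cells. Its tuft-like level differed between libraries, at 94.8, 224 and 223 CPM, and the lowest value was that of Arid3a cKO 1. Pdx1 was the least abundant member. In the WT library it was at 16.5 CPM in ISC-like, 18.6 CPM in TA-like, 19.995 CPM in enterocyte-like and 23.5 CPM in enteroendocrine-like cells, and the ranges over libraries of these classes overlapped. All 8 members were lowest or next to lowest in Paneth-like cells, which held a large load of defensin transcripts. At the median, their UMIs were 4.16 times the median of all kept cells of the same library. Pdx1 in Paneth-like cells was at 3.33, 1.18 and 3.06 CPM.

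Enterocyte-like cells were then set against ISC- and TA-like cells within each library, a description because the classes were drawn from the same cells. Hnf4g was higher by 2.00 ± 0.04 on the log2 scale (SD, n = 3 libraries) and Cdx1 was lower, at -1.93 ± 0.19. These were the 2 members beyond a 2-fold difference in all 3 libraries, a limit that 38.9% of the 12441 genes passed (10.5% higher and 28.4% lower in enterocyte-like cells). Hnf4a was at -0.59 ± 0.14, Cdx2 at -0.64 ± 0.19, Pdx1 at 0.22 ± 0.07, Onecut2 at -0.19 ± 0.14, Gata4 at -0.14 ± 0.10 and Gata6 at -0.03 ± 0.11.

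ISC-, TA- and enterocyte-like cells were also put in a diffusion order, computed without the members and cut into 5 bins of equal cell number. The Ccl20 cluster was left out of it. Bins 1 and 2 held only ISC- and TA-like cells, and bins 4 and 5 only enterocyte-like cells. Bin 3 mixed 572 enterocyte-like, 120 ISC-like and 91 TA-like cells, so its values cannot tell a graded change from this mix. Hnf4g in WT was at 43.5, 46.9, 152, 190 and 183 CPM from bin 1 to bin 5, and the step between bins 2 and 3 was present in both cKO libraries (48.8 to 157 CPM and 48.2 to 151 CPM). Cdx1 in WT was at 156, 157, 67.4, 33.4 and 33.3 CPM. The mean bin, weighted by level, was 3.69 to 3.72 for Hnf4g and 2.17 to 2.27 for Cdx1 over the 3 libraries. Pdx1 had the next highest mean bin, at 3.24, 3.30 and 3.17. In bin 5 Pdx1 was at 50.7 and 50.8 CPM in the cKO libraries and 21.2 CPM in WT, the widest separation of any bin for this gene.

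**Figure D2:**
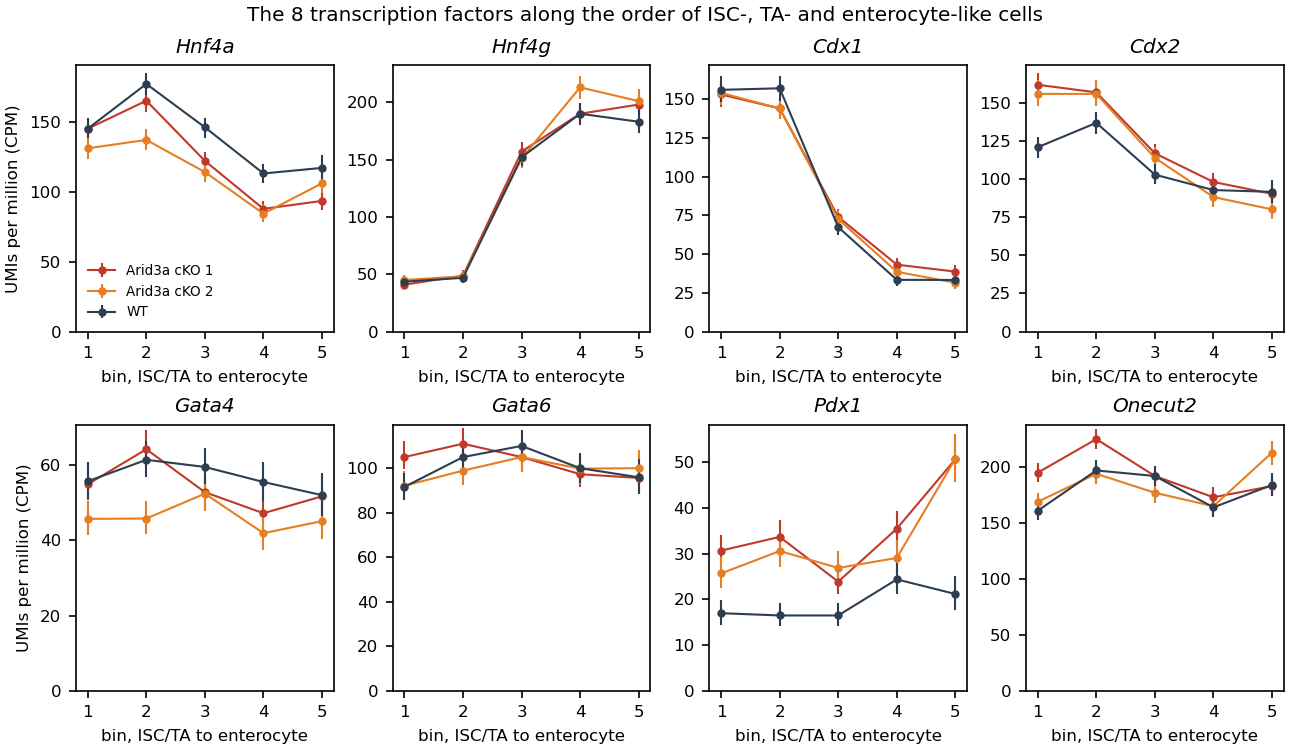
Level of each transcription factor gene (CPM) in 5 bins of equal cell number along the order from ISC- and TA-like to enterocyte-like cells, with 1 line per library and exact 95% Poisson intervals. Hnf4g goes from 40.9 to 45.0 CPM in bin 1 to 183 to 201 CPM in bin 5, Cdx1 goes the other way, and the Pdx1 lines of both cKO libraries stay above WT in all 5 bins.

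Among enterocyte-like cells, the members differed between the 3 main clusters. The largest cluster was led by Cubn, the cobalamin and albumin receptor gene, the second by Ms4a18 and the third by S100g, a duodenal calcium-binding protein gene, and Akp3, a duodenal alkaline phosphatase gene. From the Cubn to the S100g and Akp3 cluster, Pdx1 went from 14.2 to 100 CPM and from 16.3 to 89.0 CPM in the cKO libraries and from 9.19 to 64.3 CPM in WT. The mean log2 difference was 2.60 ± 0.19 (SD, n = 3 libraries), the 16th highest of 9187 genes tested, and Pdx1 was the only member past a 2-fold difference in every library (1.39% of genes passed, 0.697% in each direction). Onecut2 went the same way, from 130 to 247 CPM, from 149 to 246 CPM and from 128 to 259 CPM, a log2 difference of 0.89 ± 0.15. Gata4 was higher by 0.32 ± 0.02. Hnf4a (-0.04 ± 0.07), Hnf4g (0.01 ± 0.18), Cdx1 (-0.18 ± 0.09), Cdx2 (-0.25 ± 0.23) and Gata6 (-0.22 ± 0.04) were close to level or slightly lower. The members with a known proximal pattern were thus the 3 that were higher in the cells with S100g and Akp3, within each genotype. The clusters were defined on the same cells, so that this is a description.

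**Figure D3:**
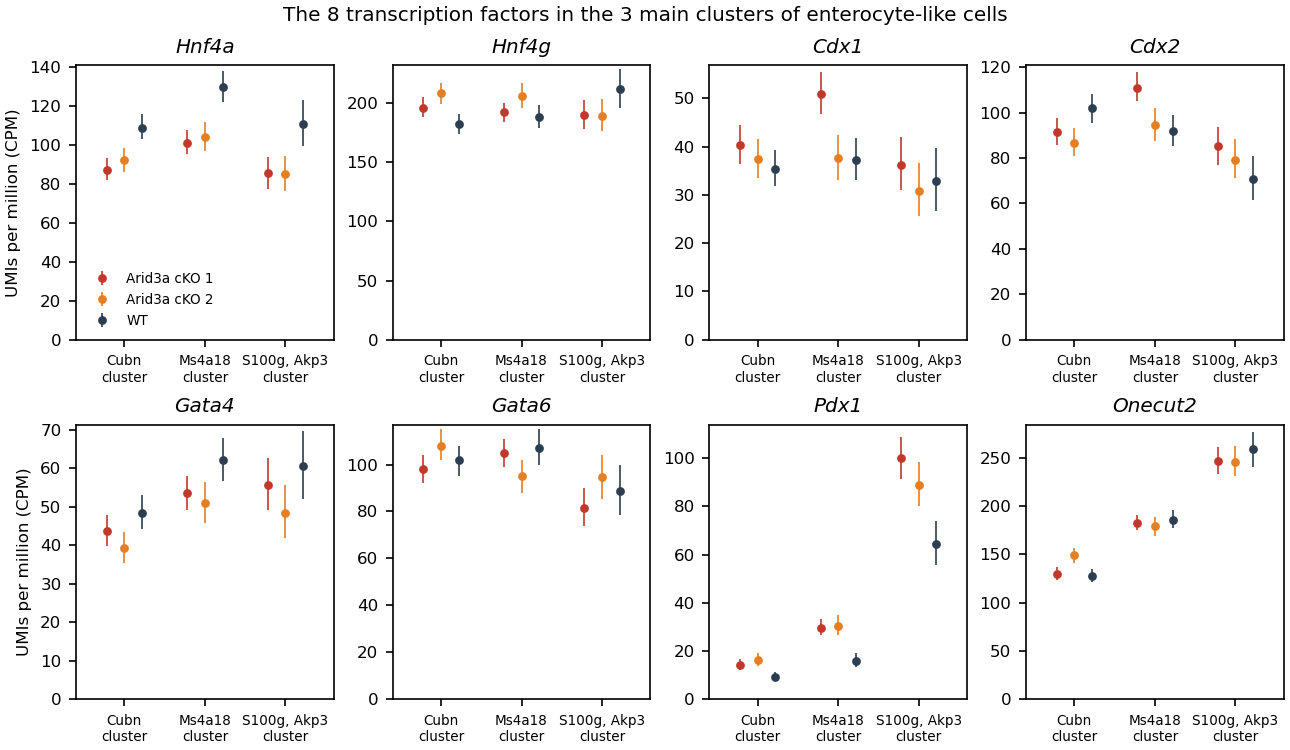
Level of each transcription factor gene (CPM) in the 3 main clusters of enterocyte-like cells, with 1 point per library and exact 95% Poisson intervals. Pdx1 spans 9.19 to 16.3 CPM in the Cubn cluster and 64.3 to 100 CPM in the S100g and Akp3 cluster, with both cKO libraries above WT in each cluster, and Onecut2 follows the same direction in all 3 libraries.

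The question put to the design was whether these factors differ without Arid3a. With 1 WT library there is no replicated test of genotype, so a gene was called apart when both cKO libraries lay on the same side of WT, with the smaller log2 ratio of CPM + 1 exceeding the gap between the cKO libraries. This rule is loose: in enterocyte-like cells it called 41.7% of the 10092 genes tested (18.7% higher and 23.0% lower), in ISC- and TA-like cells 34.4% of 11549 (17.8% higher and 16.6% lower) and over all epithelial cells 41.5% of 13416 (18.2% higher and 23.2% lower). Of the 8 members, 3 were apart in enterocyte-like cells (1 higher and 2 lower), 4 in ISC- and TA-like cells (3 higher and 1 lower) and 5 over all cells (3 higher and 2 lower). With shares of this size in the background, the counts alone are no result about the members. The median log2 ratio of the members was 0.02 in enterocyte-like and 0.04 in ISC- and TA-like cells, beside -0.01 and -0.00 over all genes. None passed a 2-fold difference in both cKO libraries, which 0.367%, 0.242% and 0.321% of genes did in the 3 sets of cells.

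Pdx1 was the member that stood farthest from WT. In enterocyte-like cells the cKO libraries had 36.5 CPM (970 UMIs) and 35.5 CPM (741 UMIs) and WT had 19.995 CPM (429 UMIs). The cKO libraries were close together and both above WT, with ratios of 1.82 (95% interval 1.63 to 2.05) and 1.78 (1.57 to 2.00). In ISC- and TA-like cells Pdx1 was at 32.0, 28.6 and 17.5 CPM, ratios of 1.83 (1.62 to 2.07) and 1.63 (1.44 to 1.86). edgeR's quasi-likelihood test of 2 cKO libraries against 1 WT library, which assumes that WT varies as the cKO libraries do, gave Benjamini-Hochberg adjusted p = 3.9e-05 in enterocyte-like cells, 0.0011 in ISC- and TA-like cells and 0.0052 over all cells. Pdx1 was the 1 member that this test called, beside 306, 109 and 137 genes in all.

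Pdx1 was above WT in both cKO libraries in each of the 3 main enterocyte-like clusters and in the Ccl20 cluster. In the Cubn cluster the levels were 14.2, 16.3 and 9.19 CPM, in the Ms4a18 cluster 29.7, 30.4 and 15.9 CPM, in the S100g and Akp3 cluster 100, 89.0 and 64.3 CPM, and in the Ccl20 cluster 34.2, 33.5 and 24.1 CPM. In the small clusters led by interferon genes (59 enterocyte-like cells; 20.97, 14.9 and 20.2 CPM) and by Ghrl and Gip (52 enteroendocrine-like cells; 17.1, 20.7 and 22.7 CPM) the cKO libraries were not both above WT. Goblet-like cells had 21.6, 14.5 and 11.9 CPM, where Arid3a cKO 2 was close to WT.

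**Figure D4:**
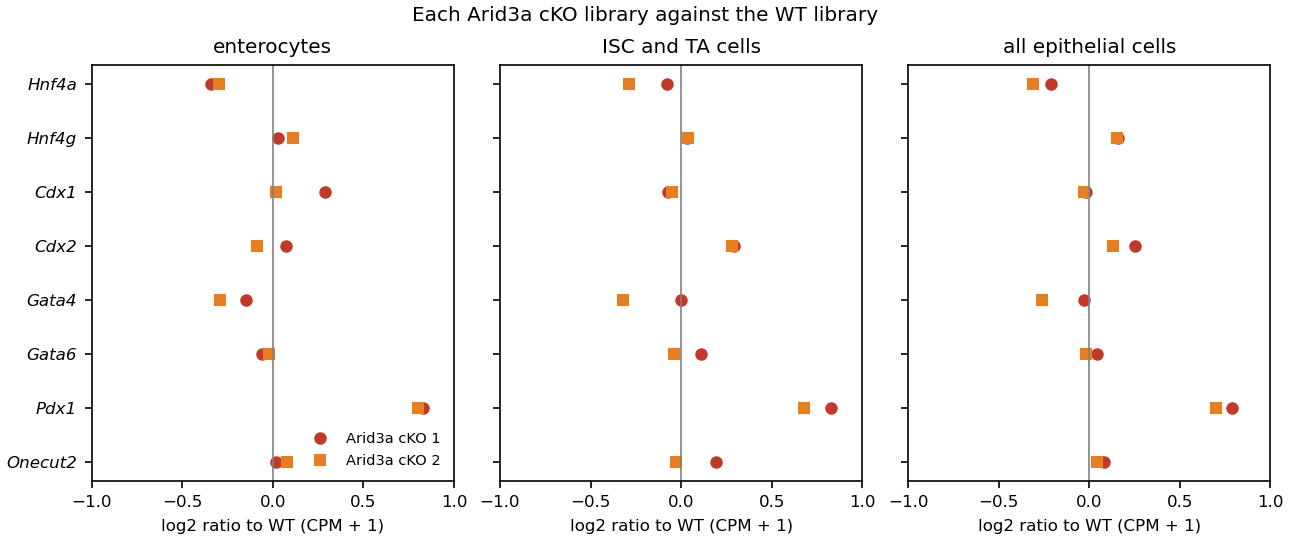
Log2 ratio of each Arid3a cKO library to the WT library (CPM + 1) for the 8 genes in 3 sets of cells, with circles for Arid3a cKO 1 and squares for Arid3a cKO 2. Pdx1 lies at 0.68 to 0.83 in every panel, Hnf4a lies below 0 in every panel, and the other members lie within 0.32 of 0.

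Some genes of the proximal small intestine were also higher in the cKO libraries. In enterocyte-like cells S100g was at 2289, 3201 and 1241 CPM, Akp3 at 69.9, 108 and 27.7 CPM, and Slc40a1, the ferroportin iron exporter gene, at 95.9, 107 and 68.8 CPM. Here and for the lists below, genes are counted as higher or lower where the apart rule called them. Over all genes the rule called 18.7% higher and 23.0% lower in enterocyte-like cells. In ISC- and TA-like cells it called 17.8% higher and 16.6% lower. S100g, Akp3 and Slc40a1, 3 of the 7 proximal genes tested in enterocyte-like cells, were called higher and none lower. The median log2 ratio was 0.22 beside -0.01 over all genes. Among the 4 not called, the lactase gene Lct (507, 575 and 592 CPM) and the iron transporter gene Slc11a2 (47.8, 41.9 and 52.1 CPM) had lower values in both cKO libraries, and the fatty acid-binding protein gene Fabp1 was nearly level (24693, 26039 and 24514 CPM). Of 5 distal genes tested 3 were lower, among them the bile acid transporter genes Slc51a (290, 281 and 333 CPM) and Slc51b (215, 216 and 245 CPM), and none was higher, with a median of -0.18. In ISC- and TA-like cells 4 of 8 proximal genes were higher and none was lower, with a median of 0.44, and 2 of 5 distal genes were higher and 2 lower, with a median of -0.06. Gkn3, a gene of proximal stem cells, was at 141, 172 and 93.5 CPM there, whereas the distal genes called higher were Slc51a (25.4, 26.9 and 23.8 CPM) and Amn (42.6, 42.3 and 36.1 CPM). The S100g and Akp3 cluster made up 17.6% (95% exact binomial interval 15.1 to 20.4%), 19.8% (16.7 to 23.2%) and 14.7% (12.1 to 17.5%) of enterocyte-like cells, intervals that overlap. A difference in the stretch of gut sampled and the genotype cannot be told apart with these libraries.

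Pdx1 was also read in cells split by Akp3, a split chosen after the data were seen and on a gene that itself differed between the libraries, so that the sides do not hold like cells in each library. Cells with an Akp3 UMI were 36.7%, 52.8% and 24.8% of enterocyte-like cells, and in them Pdx1 was at 73.6 CPM (95% interval 68.4 to 79.0), 55.1 CPM (50.9 to 59.5) and 43.9 CPM (38.6 to 49.7). In cells without an Akp3 UMI it was at 13.0 CPM (11.4 to 14.9), 11.4 CPM (9.37 to 13.8) and 11.5 CPM (9.93 to 13.3). Both cKO intervals lay above that of WT among cells with an Akp3 UMI, though the gap between the cKO values exceeded the smaller difference from WT, and the intervals overlapped among cells without one. Over clusters in place of this split, the mean log2 ratio was 0.78 without the S100g and Akp3 cluster and 0.51 with the enterocyte-like clusters weighted equally, against 0.82. In ISC- and TA-like cells the split by Gkn3 gave the same order on both sides, 32.5, 28.8 and 17.4 CPM with a Gkn3 UMI and 30.4, 28.3 and 17.7 CPM without.

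Arid3a cKO 2 also held a few cells with stomach transcripts. Gastric genes (Tff1, Tff2, Gkn1, Gkn2, Muc6 and others of the list) summed to 66, 22456 and 104 UMIs in the cKO 1, cKO 2 and WT libraries. Of these, enterocyte-like cells held 2, 238 and 1 UMIs and ISC-like cells 33, 3601 and 34. Whether this excess in Arid3a cKO 2 bears on its Pdx1 level was not tested beyond leaving out single cells. Cells with at least 10 gastric UMIs numbered 4 of the 1550 in Arid3a cKO 2, beside 0 of 2134 in the other cKO library and 2 of 1910 in WT. No enterocyte-like cell was among them, so the mean Pdx1 log2 ratio of 0.82 in that class could not change. In ISC- and TA-like cells it was 0.76 without them, where only 1 ISC-like cell of Arid3a cKO 2 and 1 of WT were left out.

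Hnf4a was lower in enterocyte-like cells of both cKO libraries, at 92.7 and 94.99 CPM against 117 CPM in WT. The ratios were 0.790 (95% interval 0.747 to 0.835) and 0.809 (0.762 to 0.858), and edgeR's adjusted p was 0.099. In ISC- and TA-like cells the levels were 157, 136 and 167 CPM, where the gap between the cKO libraries exceeded the smaller difference. Gata4 in enterocyte-like cells was at 49.7, 45.2 and 55.3 CPM, with an adjusted p of 0.32. Hnf4g was at 193, 204 and 189 CPM and not apart by the rule. As a share of both receptors, Hnf4g was at 67.6 and 68.3% in the cKO libraries and 61.7% in WT (95% exact binomial interval 60.5 to 62.8%), above WT in both.

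Cdx2 was higher in ISC- and TA-like cells, at 157 and 155 CPM in the cKO libraries and 128 CPM in WT. The ratios were 1.23 (1.17 to 1.29) and 1.21 (1.15 to 1.28), and edgeR's adjusted p was 0.68. In enterocyte-like cells the Cdx2 levels were 98.5, 87.8 and 93.7 CPM, with WT between the cKO libraries. Cdx1 was nearly level in ISC- and TA-like cells (146, 148 and 153 CPM), so that its share of the CDX UMIs was 48.2 and 48.8% in the cKO libraries and 54.5% in WT. Gata6 was at 109, 97.6 and 101 CPM and Onecut2 at 218, 187 and 191 CPM in these cells, in each case with WT between the cKO libraries.

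In goblet-like cells 3 members were apart, where 35.8% of 7567 genes were (17.4% higher and 18.4% lower). Hnf4a was at 113, 114 and 137 CPM, Gata4 at 34.0, 28.7 and 41.2 CPM and Cdx1 at 133, 135 and 143 CPM, each lower in both cKO libraries. In enteroendocrine-like cells, where no calls are given, Pdx1 was at 37.3, 30.6 and 23.5 CPM, Cdx1 at 85.8, 80.1 and 64.1 CPM, Cdx2 at 148, 115 and 96.5 CPM and Onecut2 at 316, 307 and 285 CPM, with both cKO values above that of WT. Hnf4g was at 72.4, 60.6 and 60.2 CPM and Hnf4a at 125, 126 and 131 CPM, and WT lay between the cKO values for Gata4 (50.6, 43.0 and 45.9 CPM) and Gata6 (98.4, 93.1 and 96.1 CPM). These rest on 58, 55 and 115 cells, which were 2.72%, 3.55% and 6.02% of the libraries. Within the class, Hnf4g was at 42.9, 42.0 and 45.7 CPM in the larger cluster. In the cluster led by Ghrl and Gip it was at 115, 81.2 and 77.6 CPM, so the order of the libraries differed between them.

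Known targets of the factors were read from lists. Beside the shares of all genes that the apart rule calls, given above, the counts alone are no result about the lists. Of 17 genes listed as HNF4 targets, 5 were higher and 4 lower in enterocyte-like cells of the cKO libraries, with a median log2 ratio of 0.14 beside -0.01 over all genes. Slc30a10, a manganese exporter gene, was at 84.9, 79.9 and 51.9 CPM and Apob, the chylomicron protein gene, at 1568, 1651 and 1313 CPM, both higher, whereas Vil1, the brush border villin gene, was at 924, 909 and 1015 CPM. In ISC- and TA-like cells Slc30a10 (4.39, 4.82 and 2.55 CPM) and Cpt1a (52.1, 52.4 and 44.0 CPM) were called higher. Acsl5 (77.8, 76.3 and 89.2 CPM), Abcg5, Abcg8 and Vil1 were called lower there. The Slc30a10 values in ISC- and TA-like cells are low beside those in enterocyte-like cells, and whether they are free RNA was not tested. Of 10 genes listed as CDX2 targets, 1 was higher and 3 were lower in enterocyte-like cells, with a median of -0.11. Slc15a1, the peptide transporter gene, was at 110, 106 and 124 CPM in them. In ISC- and TA-like cells Sis (136, 117 and 159 CPM) and Muc2 (45.1, 41.2 and 58.9 CPM) of that list were called lower and none was called higher. Sis was at 3275, 2787 and 3381 CPM in enterocyte-like cells, and whether its UMIs in ISC- and TA-like cells are free RNA was not tested. The one gene of that list beyond 2-fold in enterocyte-like cells was Muc2, the goblet mucin gene, at 16.8, 34.6 and 72.6 CPM. These values are 0.170 to 0.652% of its goblet-like level (8780 to 11125 CPM), under the gauge of free RNA given above. That gauge was taken from enterocyte transcripts, and whether the Muc2 UMIs are free goblet RNA was not tested. No change in Muc2 is read from these values, nor from those in ISC- and TA-like cells, which are also far below its goblet-like level.

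Other transcription factors of the epithelium were listed for comparison. Their counts, too, are no result by themselves beside the shares of all genes called. Of 22 tested of 27 in enterocyte-like cells, 6 were higher and 5 lower, with a median log2 ratio of -0.03. Tcf7l2, the WNT effector gene, was at 65.2, 78.8 and 113 CPM and Gata5 at 24.1, 23.2 and 29.5 CPM, both lower. Isx, a homeobox factor acting on vitamin A uptake, was at 69.9, 73.4 and 63.4 CPM, and was higher. Sox9, a crypt progenitor factor, was also called higher, but its 5.82, 4.65 and 2.89 CPM are 2.74 to 4.33% of its level in ISC- and TA-like cells. This is near the gauge of free RNA, which was taken from enterocyte transcripts, and no change in Sox9 is read. In ISC- and TA-like cells 5 of 23 were higher and 4 lower, and Nr1h4, the bile acid receptor gene, was among the higher ones (14.3, 12.8 and 10.0 CPM).

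Over the 21 combinations of 7 classes and 3 libraries, the genes whose levels followed each member most closely were named from 13190 genes by Pearson's r of log2 levels. They were Nup50 for Hnf4a (r = 0.988), Mdh2, Plin3 and Smim24 for Hnf4g (0.989, 0.988 and 0.987), Eif5b for Cdx1 (0.973), Npepps for Cdx2 (0.979), Naa35 for Gata4 (0.985), Nrip1 and Nr2f6 for Gata6 (0.991 and 0.988), Nagk for Pdx1 (0.969) and Ddx3x for Onecut2 (0.981). Among the members, r was 0.98 between Gata4 and Gata6 and 0.28 between Hnf4g and Cdx1. The points share libraries and depth, and the low Paneth-like values enter every pair, so that these values are descriptions.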

How the data were processed

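The authors deposited raw UMI counts per gene and barcode (Cell Ranger 5.0.0 per the file headers, 10x 3′ chemistry). The build they counted on is not given clearly for mouse in the sources used here; 99.6% of the gene identifiers matched GENCODE M21. Cells were kept at 1000 genes or more and at most 15% mitochondrial UMIs, the study's filter, integrated (Seurat 5.3.0, canonical correlation, 3000 features, 30 components, resolution 0.3) and named by marker lists. The naming threshold was set after the clusters were seen. The members stayed out of the features. Counts were summed per class and library, and genes needed 100 UMIs over the 3 libraries. Samples were grouped by their titles; edgeR 4.0.16 was run as an alternative, with Benjamini-Hochberg adjustment at 0.05. On simulated counts the apart rule recovered 100% of 4-fold changes in enterocyte-like cells and called 33.9% of unchanged genes. Smaller changes, such as the differences seen for the members, were not simulated. Diffusion order (scanpy 1.11.5) used 2 components, chosen after more of them put TA-like cells at the far end.

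Named genes were the members, Arid3a, the 3 most alike genes per member, and per list up to 4 apart genes in each direction with the largest smaller ratio, plus those past 2-fold; other genes named were chosen after their values were seen. Members and lists were chosen with earlier results of these data known. Doublets were not removed in the main values.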

Additional observations from a re-analysis of the deposited data

Results flagged for a closer look

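Cdx1 differed in direction between classes. In enterocyte-like cells its log2 ratio to WT was 0.29 in Arid3a cKO 1 and 0.02 in Arid3a cKO 2, both above 0, while in ISC- and TA-like cells it was -0.07 and -0.05, both below 0. The difference between the classes was not tested, and 3 of these 4 values lie within 0.07 of 0.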

How the results depend on the processing

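Over 274 recomputed values, 244 kept their value within the spread or count limits, 29 moved and 1 reversed: Hnf4g in ISC- and TA-like cells was 0.03 and became -0.01 with at least 500 genes and at most 25% mitochondrial UMIs. Many of the 244 could not move: filters on genes leave a member's ratio unchanged, and leaving out gastric cells removed no enterocyte-like cell. Resolution 0.8 gave the same enterocyte-like ratios. The spread was the SD between the cKO libraries, so a member on which they disagree seldom moves. The 244 are thus no measure of robustness. The count of members apart in enterocyte-like cells was 3, became 5 with at most 10% mitochondrial UMIs, and was 5 without either cKO library, where the gap between them no longer enters. In ISC- and TA-like cells the count was 4, became 2 with TMM scaling and was 4 to 6 without 1 cKO library. Over all cells it was 5, became 2 with the looser filter and was 6 without either cKO library. edgeR's log2 fold for Pdx1 was 0.86 in enterocyte-like cells, 0.79 in ISC- and TA-like cells and 0.80 over all cells. Other alternatives were added after seeing the data: with enterocyte clusters weighted equally the members' median became -0.03, and without the S100g and Akp3 cluster the mean Pdx1 log2 ratio was 0.78. The mean Pdx1 log2 ratio was 0.51 to 0.83 in enterocyte-like cells and 0.65 to 0.83 in ISC- and TA-like cells over the alternatives. No paired analysis was possible because WT has a single library here and so has only replicate number 1 in common with the cKO group. With 1 WT library the spread of WT is unknown, and classes of few cells (tuft-like and Paneth-like) have wide counting intervals.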

Other observations

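Hnf4aos, an antisense RNA gene on chr2:163493807-163541720 (minus strand) that overlaps Hnf4a by 34913 bases, had another pattern than Hnf4a. It was chosen after its values were seen. In enterocyte-like cells the cKO 1, cKO 2 and WT values were 9.58, 9.72 and 12.8 CPM, and in ISC- and TA-like cells they were 0.765, 0.764 and 0.439 CPM. Its log2 difference between these classes was 2.82 ± 0.38 (SD, n = 3 libraries), opposite to that of Hnf4a at -0.59 ± 0.14. Whether reads of either strand were separated in counting is not stated in the sources used here.

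Hormone genes of the enteroendocrine-like cells differed between the libraries. Sst (somatostatin) was at 11758, 9032 and 2976 CPM, higher in both cKO libraries, while Sct (secretin) was at 6578, 12455 and 26717 CPM and Cck (cholecystokinin) at 15822, 11129 and 23722 CPM, lower in both. Nts (neurotensin), a hormone of the distal small intestine, was at 0, 320 and 1616 CPM, where 0 UMIs allow up to 2.11 CPM. These values rest on 58, 55 and 115 cells. Hormone UMIs also lay outside this class. In TA-like cells Nts was at 5.48, 0.187 and 0.546 CPM, with 59 UMIs in Arid3a cKO 1. In ISC- and TA-like cells together Sst was at 99.7, 1.10 and 1.32 CPM, Cck at 99.3, 9.17 and 10.3 CPM and Sct at 102, 11.6 and 135 CPM.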
